A study of Mus musculus with 4 samples.

Results

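The cells described here are mesenchymal cells of the embryonic mouse heart that carry transcripts of Stmn4, a stathmin that binds tubulin and is best known from the nervous system, together with Postn or Tgfbi, which encode secreted matrix proteins of mesenchymal tissue. They were picked from 4 single-cell libraries of whole hearts at E10.5, counted in embryonic days, by 5 limits on their own unique molecular identifiers (UMIs, counts of captured transcripts): at least 2 UMIs of Stmn4, at least 2 of Postn and Tgfbi summed, at most 1 of the endothelial genes Cdh5 and Pecam1 summed, Tnnt2 (cardiac troponin T) below 10 UMIs per 10000 of the cell, and none of the epithelial gene Epcam. Of 28025 barcodes that passed the limits on genes, UMIs and mitochondrial UMIs, 750 met this rule, with 221, 250, 172 and 107 from Wt1, Wt2, Ho1 and Ho2. They are called Stmn4 mesenchyme below. A dissociated cell carries no position, so whether they came from the outflow tract was not tested.

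All 4 libraries came from C57BL/6J hearts. The 2 Wt libraries were wild-type and the 2 Ho libraries were homozygous for Cyp51 I383V, a single amino acid change knocked in by CRISPR/Cas9 in the gene of lanosterol 14-demethylase, an enzyme of cholesterol synthesis. The labels name CRISPR/Cas9 for the Wt samples as well. The change is in the germline, so every cell of an Ho heart carried it, and the UMI counts do not show it. The number of hearts behind each library is not given in the sources used here, so p-values measure only the spread between these libraries. The libraries held 109893733 (Wt1), 117034633 (Wt2), 127018819 (Ho1) and 107377100 (Ho2) UMIs over 32285 genes. Ho1 stood apart in sex. It held 31705 UMIs of Xist, which is transcribed from the inactive X chromosome, against 4, 4 and 1 in Wt1, Wt2 and Ho2, and its Stmn4 mesenchyme held no UMI of the 4 Y-linked genes examined, against 81.6, 82.2 and 92.7 CPM (UMIs per 1000000 of all UMIs of the summed cells) in Wt1, Wt2 and Ho2. Between 7 and 28 kept barcodes were shared by any pair of libraries, and none of them was a cell of the Stmn4 mesenchyme in both.

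The outflow tract of the embryonic heart is built from second heart field progenitors, from endothelial cells that turn into cushion mesenchyme, and from neural crest cells that migrate in. Its mesenchyme forms the septum between aorta and pulmonary trunk, parts of the semilunar valves and the first smooth muscle of the great arteries. Cushion mesenchyme lies in a matrix rich in hyaluronan, which Hapln1, a link protein, ties to versican.

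Stmn4 marked these cells by the rule itself, so its values are a description. A cell of the Stmn4 mesenchyme had a median of 5, 6, 4 and 5 Stmn4 UMIs in Wt1, Wt2, Ho1 and Ho2, and the highest cell had 18, 21, 21 and 19. At the lower limit, 43, 39, 34 and 20 cells had exactly 2 UMIs, and 59, 60, 59 and 41 cells that met every other limit had exactly 1 and stayed out. Summed over cells, Stmn4 (chr14:66344296-66361680, GRCm38) was at 360, 348, 317 and 313 CPM in Wt1, Wt2, Ho1 and Ho2, a mean of 334 ± 23.0 (SD, n = 4). In barcodes with at least 3 UMIs of Cdh5 and Pecam1, which stand for endothelial and endocardial cells, it was at 5.56 ± 1.52 CPM, and in barcodes with Tnnt2 of at least 20 per 10000, which stand for cardiomyocytes, at 5.45 ± 1.34 CPM.

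Both matrix genes of the rule were present in most of the cells. Postn and Tgfbi were found together in 172, 198, 156 and 88 cells, Postn alone in 7, 6, 2 and 1, and Tgfbi alone in 42, 46, 14 and 18. Postn (chr3:54361109-54391037) stood at 240, 240, 335 and 223 CPM, and Tgfbi (chr13:56609523-56639562) at 279, 279, 307 and 320 CPM. Ho1 was the highest library for Postn and the other three lay close together. Another 31, 37, 10 and 15 cells had the Stmn4 UMIs but 0 or 1 UMI of the matrix genes.

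Rgs5, the fourth marker of these cells, was not used by the rule. It encodes a regulator of G protein signalling known from pericytes and vascular smooth muscle. Rgs5 (chr1:169655501-169695813) was at 178, 171, 136 and 178 CPM, with Ho1 the lowest library. The lowest of these values was above all 4 endothelial values, which averaged 11.3 CPM, and all 4 cardiomyocyte values, which averaged 9.41 CPM. Ho1 was the lowest library in those barcodes as well. Rgs5 was at 13.6, 13.1, 4.92 and 13.8 CPM in the endothelial barcodes of Wt1, Wt2, Ho1 and Ho2. In the cardiomyocyte barcodes it was at 15.5, 9.31, 3.24 and 9.61 CPM. At least 1 Rgs5 UMI was found in 76.0, 77.6, 68.0 and 81.3% of the cells. After each cell was thinned to 2000 UMIs these shares were 29.0, 22.8, 18.6 and 26.2%, against 1.85, 1.68, 0.898 and 1.32% of the cardiomyocyte barcodes. The median depth before thinning was 15806, 17819, 17834.5 and 19172 UMIs in the Stmn4 mesenchyme and 14969, 19787, 18786 and 19269 in the cardiomyocyte barcodes. Rgs5 was also present just outside the limit of 2 Stmn4 UMIs. It stood at 266, 172, 105 and 182 CPM in the cells with exactly 2 and at 208, 204, 57.3 and 160 CPM in those with 1. In the cells with the Stmn4 UMIs but 0 or 1 UMI of the matrix genes, Rgs5 was at 252, 309, 180 and 172 CPM.

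**Figure D1:**
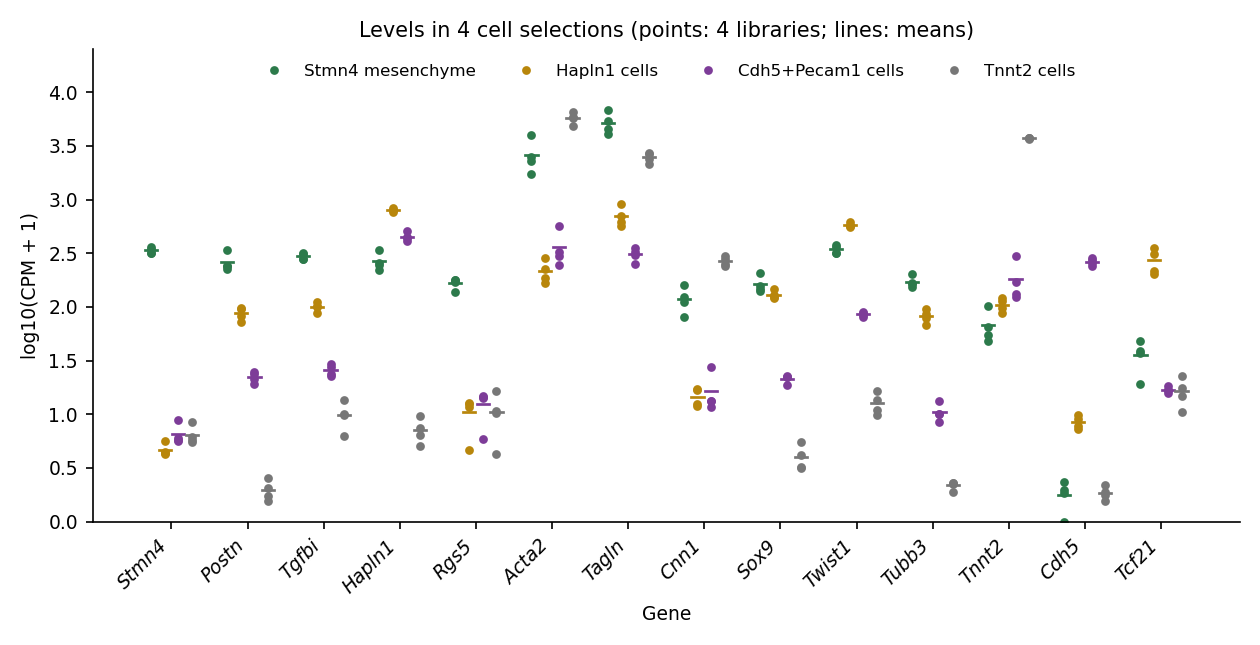
Levels of 14 genes, as log10(CPM + 1), in the summed Stmn4 mesenchyme of each library, in cells with Hapln1 and little Stmn4 (Hapln1 cells), in the endothelial barcodes (Cdh5+Pecam1 cells) and in the cardiomyocyte barcodes (Tnnt2 cells). Points are the 4 libraries and lines their means. Stmn4, Postn, Tgfbi, Hapln1, Tnnt2 and Cdh5 chose the cells, and Rgs5, which did not, averages 166 CPM in Stmn4 mesenchyme and 11.3 CPM in the endothelial barcodes.

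Stmn4 mesenchyme was a small share of each heart library. It made up 2.67% of kept barcodes in Wt1 (exact 95% binomial interval 2.33 to 3.04), 3.65% in Wt2 (3.22 to 4.13), 2.48% in Ho1 (2.13 to 2.87) and 1.79% in Ho2 (1.47 to 2.16). These intervals cover counting error only. Both Ho shares were below both Wt shares, with means of 2.14 ± 0.487% in Ho and 3.16 ± 0.698% in Wt (SD, n = 2). The difference of -1.02 percentage points had a two-sided exact permutation p of 0.333, the smallest that 2 libraries against 2 can give. Without Wt2 it was -0.531 and without Ho2 -0.681 percentage points. The rule counts UMIs, and the Ho libraries and Wt2 had a higher median depth per kept barcode (15505 to 16898 UMIs) than Wt1 (12066). When barcodes were first thinned to 5000 UMIs, leaving out 977, 508, 344 and 317 shallower ones, 84, 98, 84 and 36 cells met the rule. The shares were then 1.15, 1.55, 1.27 and 0.637%, and Ho1 lay above Wt1 (difference -0.393 percentage points, exact permutation p = 0.667). The groups thus overlapped at equal depth. The libraries also differed in their other cells. Barcodes with Tnnt2 of at least 20 per 10000 numbered 1296, 2084, 2673 and 2050 of 8283, 6840, 6933 and 5969 kept barcodes in Wt1, Wt2, Ho1 and Ho2. Epcam stood at 55.6, 15.6, 0.699 and 40.0 CPM in the kept barcodes outside the Stmn4 mesenchyme. A share of kept barcodes moves with the other cells taken, and the part of this in the shares was not tested.

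**Figure D2:**
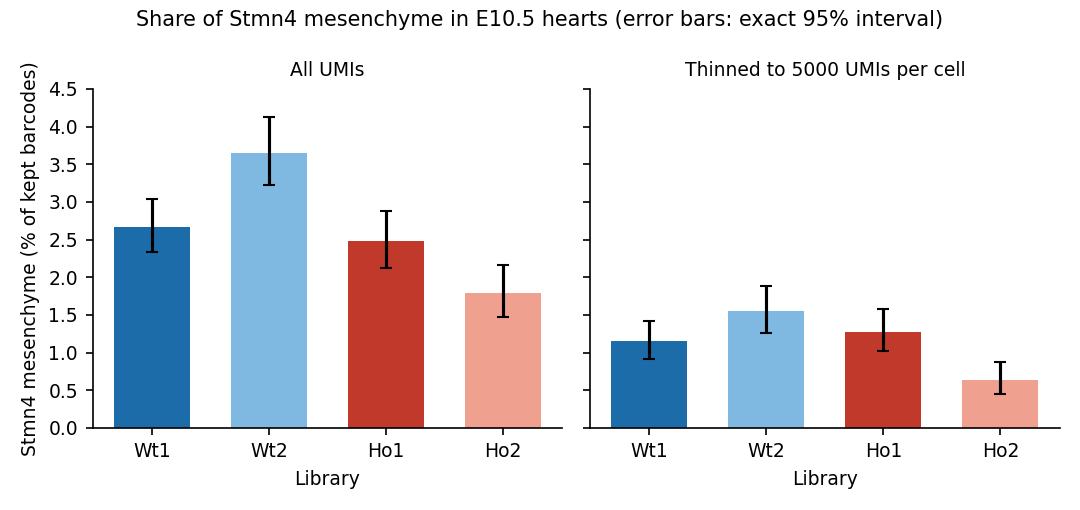
Share of kept barcodes that met the rule for Stmn4 mesenchyme in each library, in percent, with all UMIs and after thinning to 5000 UMIs per barcode. Error bars are exact 95% binomial intervals and cover counting error only. The groups do not overlap with all UMIs, and Ho1 (1.27%) lies above Wt1 (1.15%) after thinning.

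To describe what else these cells expressed, they were set against 2453 cells with at least 3 Hapln1 UMIs and at most 1 Stmn4 UMI under the same limits on Cdh5, Pecam1, Tnnt2 and Epcam, called Hapln1 cells (552, 658, 767 and 476 per library). UMIs were summed per library and class and compared within libraries by edgeR's quasi-likelihood test with Benjamini-Hochberg adjustment, and fold changes are log2 with their SE. Of 11588 genes tested, 2097 (18.1%) were higher and 2079 (17.9%) lower in Stmn4 mesenchyme at an adjusted p below 0.05, and 456 (3.94%) and 536 (4.63%) of them by a log2 fold change of at least 1. The choice of cells bears on this result. Any gene that goes along with Stmn4, Postn, Tgfbi or Hapln1 from cell to cell had to differ, so the calls say how the picked groups differed and not that they are separate types. The 8 genes of the rules were given no test. Counts of list genes are read against the shares of 18.1% higher and 17.9% lower over all genes. A rare gene could pass the filter on low counts through the class where it is high and then had to differ, so where it matters the counts are also given for genes with at least 10 counts in every sum. The Hapln1 cells also held transcripts of the epicardium, the outer cell layer of the heart. The 9 epicardial genes listed summed to 416, 712, 445 and 880 CPM in them, against 56.4, 86.6, 67.1 and 117 CPM in Stmn4 mesenchyme. The comparison was therefore repeated with the 2081 Hapln1 cells that had no UMI of Upk3b, Upk1b, Krt7 or the Wilms tumour gene, called Hapln1 cells without epicardial UMIs, and, separately, with the 1213 Hapln1 cells that met the Postn and Tgfbi limit. Both repeats were chosen after the data were seen. Any gene that goes along with the genes that chose the cells of a repeat had to shift there. Of the 4176 calls, 4016 could be tested in the first, where 3382 were called in the same direction. There 77 had a fold change of the opposite sign, called or not. In the second 3901 could be tested, where 2981 were called in the same direction and 65 had the opposite sign, called or not. The limits on Cdh5, Pecam1, Tnnt2 and Epcam were added to the rule for the Hapln1 cells. All 8387 kept cells with at least 3 Hapln1 UMIs and at most 1 Stmn4 UMI are called cells by Hapln1 and Stmn4 alone. Against them, 3428 of the 4176 calls were made in the same direction and 250 had the opposite sign, called or not.

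Genes of contractile smooth muscle were higher in Stmn4 mesenchyme. Of 26 listed genes 21 were tested, 16 were higher and none lower, with a median log2 fold change of 1.11 against -0.01 over all genes tested. The same counts of 16 and 0 were found in both repeats with fewer Hapln1 cells. Against the 8387 cells by Hapln1 and Stmn4 alone 19 of 24 were higher and 4 lower, and with no filter on low counts 18 of 26 were higher and 2 lower. Acta2, smooth muscle actin, stood at 2285, 2475, 1721 and 3972 CPM in Stmn4 mesenchyme of Wt1, Wt2, Ho1 and Ho2 and at 166, 227, 187 and 283 CPM in Hapln1 cells. The classes did not overlap, and Ho2 was the highest library in both. The fold change was 3.58 ± 0.066 (adjusted p = 2.29e-19). Tagln, the actin-binding protein transgelin, stood at 4587, 5388, 4061 and 6836 against 618, 694, 562 and 916 CPM (2.92 ± 0.027, adjusted p = 5.78e-25), again with Ho1 lowest and Ho2 highest. Cells just outside the rule held Acta2 too. It was at 1496, 2245, 1042 and 1833 CPM in the cells with 1 Stmn4 UMI. In those with at least 2 but 0 or 1 UMI of the matrix genes, it was at 4385, 4694, 1716 and 4593 CPM. Rgs5 differed by 4.20 ± 0.12 (adjusted p = 1.85e-16) from Hapln1 cells, which had 11.9, 10.7, 3.68 and 11.4 CPM. Calponin 1 (Cnn1, 3.11), gamma smooth muscle actin (Actg2, 3.48), myosin light chain 9 (Myl9, 2.55), beta-tropomyosin (Tpm2, 2.20) and caldesmon (Cald1, 1.14) were all higher. So was the transcriptional coactivator Myocd (1.06 ± 0.29, adjusted p = 0.00619), but at only 3.32, 3.30, 3.93 and 3.86 CPM. Several of these contractile genes are also active in embryonic cardiomyocytes. Acta2 was at 5771 ± 679 CPM and Tagln at 2465 ± 253 CPM (SD, n = 4) in the barcodes with Tnnt2 of at least 20 per 10000, so Tagln was higher and Acta2 lower in Stmn4 mesenchyme than there, with no overlap of libraries. The part of cardiomyocyte RNA in these values was not tested. Smtn (0.28), Des (0.16), Srf (0.09), Cspg4 (0.37) and Mcam (0.10) did not pass the test. Myh11, the myosin heavy chain of mature smooth muscle, was too rare to test, at 3.32, 3.96, 0 and 1.45 CPM, with no UMI in the Hapln1 cells of any library.

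Serum response factor and its coactivator Myocd act on smooth muscle genes through a DNA element called the CArG box. Promoter windows of 300 bases, from 250 before to 50 after the start of each gene (RefSeq, GRCm38.p6), were searched for it on both strands, which read the same. A match was 10 bases that began with CC, ended with GG and had only A or T between. This strict form was found in 3 of the 20 listed smooth muscle genes with a window (15%) and in 1.81% of the 27025 genes searched. The 3 stretches are shown because 16 of the list's 21 tested genes were higher. A match in this window is a description and no match says only that these letters were absent from it. Acta2 had no match, but its window holds CC and GG at this spacing with a C or G among the bases between. Such looser forms were not counted in any gene. The capitals mark the CArG box, each stretch runs 5′ to 3′ on the strand of its gene, and the boxes begin 56 bases before the start in Cnn2 (1.11, higher), 161 before it in Myl9 (2.55, higher), and 82 and 62 before it in Srf (0.09, not called).
Cnn2, chr10:79988519-79988578, plus strand: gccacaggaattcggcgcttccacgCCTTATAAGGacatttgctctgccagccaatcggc
Myl9, chr2:156775278-156775337, plus strand: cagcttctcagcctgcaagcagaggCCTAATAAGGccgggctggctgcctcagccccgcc
Srf, chr17:46556190-46556269, minus strand: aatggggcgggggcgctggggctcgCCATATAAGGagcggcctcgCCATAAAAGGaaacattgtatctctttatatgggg

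Among the genes that were higher in Stmn4 mesenchyme and at 50 CPM or more there, the largest difference was that of Cxcl12, the ligand of the chemokine receptor Cxcr4. It stood at 167, 239, 79.2 and 183.5 CPM in Stmn4 mesenchyme against 11.6, 11.4, 3.14 and 6.26 CPM in Hapln1 cells (4.39 ± 0.10, adjusted p = 1.39e-17). Ho1 was the lowest library in both classes. Other leading genes were Pla2g7, a secreted phospholipase (3.50), Plac8 (3.36), Inhba, a subunit of activin A (2.67), Cdc42ep3, an effector of the small GTPase Cdc42 (2.59), and the small heat shock protein Hspb1 (2.46). The genes that were lowest against Hapln1 cells included the mesothelial uroplakins Upk3b (-4.65) and Upk1b (-4.46), the proteoglycan decorin (Dcn, -4.43), the epicardial factor Tcf21 (-2.96), the flow-responsive factor Klf2 (-3.17) and the homeobox factor Msx1 (-2.60). Upk3b, Upk1b and Dcn were rare in Stmn4 mesenchyme, at means of 5.76, 2.91 and 3.43 CPM with no UMI in Ho1, so they passed the filter on low counts through the Hapln1 cells and had to differ. The membrane linker Ezr (-3.27) and Smim1 (-2.92) were also among them, but against Hapln1 cells without epicardial UMIs Ezr was no longer called (-0.31, adjusted p = 0.187) and Smim1 was higher (0.72, adjusted p = 0.00258). Sdc4, Gsta4, Igfbp5, Wnt11, Tfpi, Gngt2 and Prxl2a, with fold changes from -2.50 to -1.95, completed the leading 15 that were lower.

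**Figure D3:**
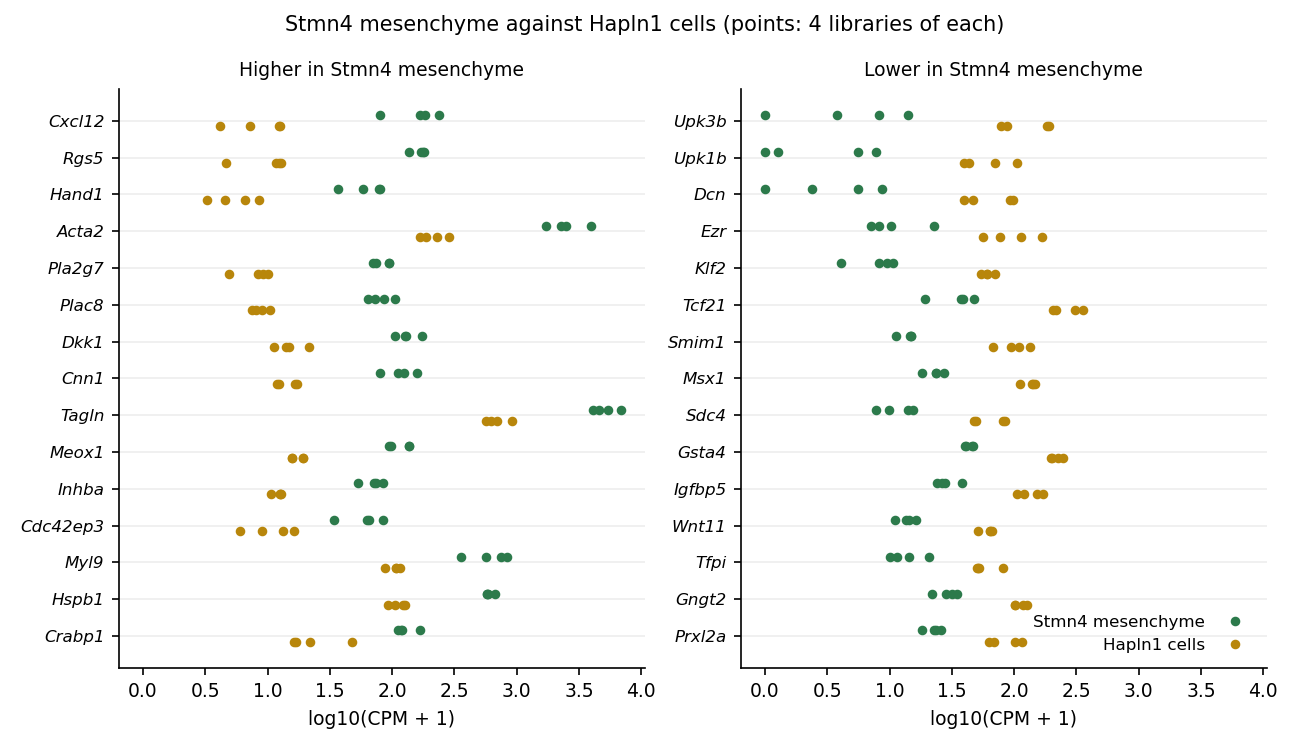
Levels of the 15 leading genes in each direction, as log10(CPM + 1), in Stmn4 mesenchyme and in Hapln1 cells. Each point is 1 library and class. The points of the classes do not overlap for any gene shown, and Smim1, on the lower side here, is higher against Hapln1 cells without epicardial UMIs.

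Of the 11 tested genes listed for the second heart field, the progenitor pool that lengthens the outflow tract, 8 were higher and 2 lower, with a median of 0.83. Hand1, a basic helix-loop-helix factor, was 3.72 ± 0.14 higher (adjusted p = 2.24e-14) at 57.5, 77.0, 36.0 and 79.7 CPM, and the homeobox factor Isl1 was 2.13 ± 0.13 higher (adjusted p = 4.99e-11). Isl1 stood at 48.1, 59.1, 29.1 and 70.0 CPM against 13.8, 12.9, 9.34 and 10.2 CPM. Foxf1 (1.22), Bmp4 (0.90), Foxc1 (0.83), Mef2c (0.66) and Foxc2 (0.52) were higher, while Osr1 (-1.41) and Wnt11 (-2.19) were lower. The other 7 listed genes, with Tbx1, Fgf8, Fgf10 and Nkx2-5 among them, were too low to test. Against Hapln1 cells that met the Postn and Tgfbi limit, 5 of 8 genes were higher and 1 lower, with at least 10 counts in every sum 6 of 7 were higher and 1 lower, and against the cells by Hapln1 and Stmn4 alone 6 of 14 were higher and 2 lower (median 0.31).

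Of 27 tested factors of cushion and valve mesenchyme 15 were higher and 7 lower, with a median of 0.22. Meox1 (2.81), Twist2 (2.39), Prrx2 (2.11), Prrx1 (1.98) and Msx2 (1.11) led the higher group. Sox9, a factor of cushion and cartilage progenitors, was modestly higher (0.33 ± 0.055, adjusted p = 7.24e-05) at 140, 145, 208 and 155 CPM against 119, 127, 147 and 124 CPM. Twist1 was lower (-0.74 ± 0.041, adjusted p = 6.90e-12), at 314, 377, 362 and 320 against 558, 617, 566 and 582 CPM, and so were Msx1, Scx (-1.09), Tbx2 (-1.04) and Nfatc1 (-0.90). Gata4 (0.07) and Snai2 (0.04) did not pass the test. With Hapln1 cells that met the Postn and Tgfbi limit, the counts were 11 higher and 9 lower, and against the cells by Hapln1 and Stmn4 alone they were 21 higher and 4 lower (median 0.75).

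Neural crest genes gave a mixed picture. Of 14 tested, 6 were higher and 2 lower, and with no filter on low counts 13 were higher. Dlx2 (4.55), Tfap2a (3.65) and the retinoic acid binding proteins Crabp1 (2.46) and Crabp2 (1.77) were higher, with Plxna2 (1.28) and Ets1 (0.72). Dlx2 and Tfap2a were rare, at 8.82 ± 2.05 and 4.26 ± 1.90 CPM (SD, n = 4). At a mean of 0.390 and 0.333 CPM they were nearly absent from Hapln1 cells, so they passed the filter on low counts through the Stmn4 mesenchyme. With at least 10 counts in every sum 8 genes could be tested, of which 4 were higher and 2 lower, and against the cells by Hapln1 and Stmn4 alone 11 of 19 were higher and 3 lower. In contrast, Crabp1 stood at 165, 116, 118 and 111 CPM against 47.1, 16.0, 15.3 and 20.9 CPM. Sox10, which defines migrating crest and glia, was at 6.36, 0.879, 4.58 and 0.966 CPM and did not pass the test (0.61). Gbx2 had no UMI, Foxd3 at most 0.44 CPM, and Tfap2b was found only in Wt1, at 2.21 CPM. Of the Hox genes of the cardiac crest and posterior heart field, 4 were tested and 3 were higher, Hoxa2 (2.35) and Hoxb2 (1.32) among them. Hoxa2 was at a mean of 1.07 CPM in Hapln1 cells, and with at least 10 counts in every sum 1 Hox gene could be tested, which was higher. Of the 7 glial genes 5 were tested, of which Fabp7 (-1.34) and S100b (-3.04) were lower and the other 3 did not pass the test. With at least 10 counts in every sum 2 were tested and neither was called, and 1 was higher without Wt1, with at least 3 Stmn4 UMIs, with at least 2 Stmn4 UMIs per 10000 and without Scrublet doublets. Against the cells by Hapln1 and Stmn4 alone 3 glial genes were higher and 1 lower.

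The other stathmins were called higher in Stmn4 mesenchyme, but against the cells by Hapln1 and Stmn4 alone 2 were higher and 1 lower, and against Hapln1 cells without epicardial UMIs or with 1 Stmn4 UMI as the limit 2 of the 3 were higher. Stmn3 differed by 3.86 ± 0.28 (adjusted p = 6.90e-10), Stmn2 by 0.63 ± 0.14 (adjusted p = 0.0016) and Stmn1 by 0.38 ± 0.038 (adjusted p = 7.18e-08). Stmn3 was at only 15.8, 10.1, 13.8 and 5.31 CPM and at a mean of 0.737 CPM in Hapln1 cells, so it passed the filter on low counts through the Stmn4 mesenchyme. Stmn1, which dividing cells carry widely, was at 1098, 1224, 954 and 1071 CPM. Of 20 neuronal genes 9 were tested and 5 were higher, of which Stmn3 and Stmn2 are already named and the others were Map2 (1.53), Tubb3 (1.09) and Uchl1 (0.37). With at least 10 counts in every sum 5 neuronal genes could be tested, of which 3 were higher, and 2 stathmins, both higher. Against the cells by Hapln1 and Stmn4 alone 7 of 12 neuronal genes were higher and 3 lower. Dcx and Th had no UMI in the Stmn4 mesenchyme, and Elavl3 (-0.11), Elavl4 (-0.12), Gap43 (0.10) and Rtn1 (-0.02) did not pass the test. The list summed to 451, 505, 517 and 471 CPM, with Rtn1, a membrane protein of the endoplasmic reticulum, as its most abundant gene.

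Of 19 genes of tubulins, on which stathmins act, and of microtubule-binding proteins 12 were higher and 2 lower, with a median of 0.40. Tubb3, a beta-tubulin, stood at 161, 151, 167 and 203 CPM against 66.1, 78.0, 84.1 and 93.8 CPM. After thinning, a Tubb3 UMI was found in 23.5, 26.0, 24.4 and 32.7% of Stmn4 mesenchyme cells, against 0.232, 0.288, 0.449 and 0.0488% of the cardiomyocyte barcodes. Tubb2b (1.49), Crmp1 (1.37), Map1b (0.83), Tuba1a (0.78), Tubb6 (0.69) and Tubb2a (0.56) were higher, while Tuba1b (-0.20) and Tubb4b (-0.15) were lower.

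Matrix genes differed in both directions. Apart from the 3 that chose the cells, 39 were tested, 17 higher and 12 lower. Fbln5, a fibulin of elastic fibres, was higher (3.76 ± 0.38) but rare, at 3.04, 8.36, 3.27 and 6.28 CPM and a mean of 0.366 CPM in Hapln1 cells, so it passed the filter on low counts through the Stmn4 mesenchyme. With at least 10 counts in every sum 16 of 33 matrix genes were higher and 12 lower. Tenascin C (Tnc) was higher by 1.22 ± 0.085 (adjusted p = 3.39e-10), at 72.5, 69.3, 95.6 and 63.3 against 34.9, 32.2, 32.8 and 30.8 CPM. Fibronectin (Fn1, -0.71), versican (Vcan, -0.29), biglycan (Bgn, -0.77) and fibulin 1 (Fbln1, -0.97) were lower, and elastin (Eln, 0.28) did not pass the test. Against the cells by Hapln1 and Stmn4 alone 23 of 41 were higher and 10 lower. Of 22 collagen genes 8 were higher and 8 lower (median -0.05). The counts were 7 and 5 of 18 with at least 10 counts in every sum, 11 and 8 of 22 against Hapln1 cells without epicardial UMIs, and 16 and 7 of 25 against the cells by Hapln1 and Stmn4 alone (median 1.02). Col1a1 was higher (1.82 ± 0.076, adjusted p = 9.12e-14), at 108, 136, 110 and 183 against 24.6, 47.4, 31.4 and 49.1 CPM, while its partner chain Col1a2 was lower (-0.60 ± 0.081, adjusted p = 4.80e-06), at 36.2, 43.3, 27.2 and 52.2 against 44.5, 73.6, 45.3 and 80.1 CPM. Col12a1 (2.96), Col14a1 (2.07), Col2a1 (2.00) and Col3a1 (1.19) were higher, and Col13a1 (-2.40) and Col23a1 (-1.14) lower. Of 22 adhesion genes 9 were higher and 6 lower, and with at least 10 counts in every sum 8 of 17 were higher and 4 lower. The integrin subunit Itgb3 (2.76), N-cadherin (Cdh2, 1.22) and Cd44 (1.06) were higher, and Ncam1 (-1.51), Itga8 (-1.39) and Alcam (-1.05) were lower.

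Of 28 tested Wnt genes 12 were higher and 7 lower, and with at least 10 counts in every sum 11 of 22 were higher and 3 lower. Among the secreted proteins, the antagonists Dkk1 (3.22 ± 0.12, adjusted p = 1.70e-14), Sfrp2 (2.73), Frzb (2.44) and Sfrp1 (1.24), the agonist Rspo3 (2.00) and the ligand Wnt5a (1.34) were higher. Dkk1 stood at 126, 104, 173 and 129 CPM against 20.4, 13.2, 13.8 and 10.2 CPM. The receptors Fzd8 (1.28), Fzd1 (1.20), Fzd7 (0.93), Fzd4 (0.75) and Fzd2 (0.38) were higher too. The ligands Wnt2 (-2.38), Wnt11 (-2.19) and Wnt5b (-0.76) were lower. So were Axin2 (-1.59) and Nkd1 (-1.65), common targets of beta-catenin signalling, and the factor Lef1 (-1.70), which stood at 11.9, 9.67, 8.19 and 8.21 against 28.9, 33.4, 36.4 and 26.2 CPM.

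In the TGF-beta and BMP families 17 of 35 tested genes were higher and 6 lower. The ligands Tgfb2 (1.15 ± 0.057, adjusted p = 1.53e-12) and Bmp4 (0.90) were higher, and Tgfb2 was even across libraries at 174, 171, 167 and 177 CPM. Bmp4 was uneven, at 26.8, 46.4, 15.1 and 50.7 CPM. The receptor Acvrl1 (1.38) and the inhibitor of differentiation Id4 (2.16) were higher, and the receptors Tgfbr2 (-0.54) and Tgfbr3 (-2.14), the ligand Bmp6 (-1.28) and the antagonists Fst (-1.34) and Nog (-0.68) were lower. The lower genes were rare, and with at least 10 counts in every sum 16 of 27 genes of the families were higher and 1 lower. Against Hapln1 cells that met the Postn and Tgfbi limit 10 of 32 were higher and 4 lower, and against the cells by Hapln1 and Stmn4 alone 20 of 36 were higher and 10 lower. Of 12 Notch genes 4 were higher, the ligand Jag1 (1.00), the receptor Notch3 (0.74), the cofactor Rbpj (0.30) and the target Hey1 (0.95), and Notch1 (-0.39) and Nrarp (-0.58) were lower. Against the cells by Hapln1 and Stmn4 alone the Notch counts turned to 5 higher and 8 lower of 14 (median -0.54). Of 12 FGF genes only the target Etv4 (1.88) and the receptor Fgfr3 (0.65) passed the test, and against the cells by Hapln1 and Stmn4 alone 7 of 13 were higher and 1 lower (median 0.40). Without Wt2, without Ho2 and with DESeq2 1 FGF gene was higher, and with 1 Stmn4 UMI as the limit 4 were higher. Among 10 genes of PDGF and endothelin signalling 4 were higher and 4 lower, and with at least 10 counts in every sum 2 of 7 were higher and 5 lower. With Wt2 left out, 2 of 8 of these genes were higher and 3 lower, and DESeq2 called 2 higher and 2 lower. The receptor Pdgfrb of mural cells was higher (0.85 ± 0.11, adjusted p = 2.18e-06), at 47.6, 46.6, 30.5 and 49.3 CPM, while Pdgfra, of mesenchymal progenitors, was lower (-0.31 ± 0.069, adjusted p = 0.00133) at 56.1, 58.9, 67.5 and 62.8 CPM, and Ednrb was lower by -2.54.

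Guidance genes went both ways, with 7 of 30 higher and 10 lower, with 11 higher and 6 lower against Hapln1 cells without epicardial UMIs and 14 of 35 higher and 10 lower against the cells by Hapln1 and Stmn4 alone. Plxna2 (1.28), Robo2 (1.21), Slit3 (1.12) and Sema3a (1.08) were higher, Epha3 (-2.36), Sema3d (-1.72) and the semaphorin receptor Plxnd1 (-0.83) were lower, and Sema3c did not pass the test (0.41). Hedgehog genes gave 3 higher and 4 lower of 15, which is near the shares over all genes, the mediator Gli3 (0.77) among the first and the co-receptor Gas1 (-0.73) among the second, and the target Gli1 was too low to test. Against the cells by Hapln1 and Stmn4 alone 9 of 18 hedgehog genes were higher and 2 lower (median 0.38), and without Ho2 the counts were 3 and 2. Of 30 genes of the primary cilium, Kif3a (0.50) and Ift81 (0.32) were higher and Rab11a (-0.16) lower (median -0.08). Against the cells by Hapln1 and Stmn4 alone 7 of 31 were higher and 1 lower (median 0.11), and with at least 2 Stmn4 UMIs per 10000 1 was higher and 3 lower. Without Wt1 3 cilium genes were higher, without Wt2 1 was higher, without Ho2 none was lower, and DESeq2 called 1 higher and none lower. Of 12 retinoic acid genes 3 were higher, Crabp1 and Crabp2 among them, and 3 were lower, the synthetic enzymes Aldh1a2 (-3.44) and Aldh1a1 (-3.72), of which the first is also an epicardial gene, and the degrading enzyme Cyp26b1 (-2.36). These 3 averaged 0.965, 0.927 and 0.519 CPM in Stmn4 mesenchyme, and with at least 10 counts in every sum 7 genes could be tested, 3 higher and 1 lower. Among 8 tested RGS genes, apart from Rgs5, Rgs17 (0.30) was higher and Rgs10 (-0.59) lower. The list had 2 higher genes with Rgs5, but 1 without Wt1, without Wt2, without Ho1, with DESeq2 and without the library block.

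Of 26 tested genes of cholesterol synthesis, the pathway of Cyp51, 9 were higher, 1, Ebp (-0.31), was lower and 16 did not pass the test, with a median of 0.18. Cyp51 (chr5:4081145-4104746) was higher by 0.48 ± 0.069 (adjusted p = 1.09e-05), at 66.9, 89.9, 70.1 and 69.1 CPM against 48.9, 57.4, 53.0 and 57.5 CPM. Insig2 (0.85), which retains the pathway's regulator in the endoplasmic reticulum, that regulator, Srebf2 (0.59), and the enzymes Fdps (0.59), Fdft1 (0.38), Pmvk (0.35), Acat2 (0.33) and Hmgcs1 (0.31) were higher. The 2 repeats with other Hapln1 cells each called 15 of these genes higher, and against the cells by Hapln1 and Stmn4 alone 11 were higher and 5 lower.

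Cell cycle genes were lower as a group. None of 40 S-phase genes was higher and 28 were lower (median -0.31), and none of 52 G2 and M-phase genes was higher and 35 were lower (median -0.29), though DESeq2 called 15 of the latter lower and 19 were called without Ho2. Mki67, a protein of dividing cells, was lower by -0.53 ± 0.075 (adjusted p = 8.62e-06), at 38.4, 44.6, 39.3 and 39.1 against 57.5, 57.8, 61.2 and 62.0 CPM. At 2000 UMIs per cell, a UMI of Mki67 or Top2a was found in 19.5% (14.5 to 25.3, exact 95% binomial interval), 20.8% (15.9 to 26.4), 17.4% (12.1 to 24.0) and 18.7% (11.8 to 27.4) of Stmn4 mesenchyme cells, and in 21.6, 27.4, 25.7 and 23.1% of Hapln1 cells. The share was lower in 4 of 4 libraries, by 5.33 ± 2.66 percentage points (SD, n = 4), with a two-sided exact permutation p of 0.125, the smallest that 4 pairs can give. Without thinning the shares were 48.0, 54.0, 50 and 51.4% against 56.2, 57.8, 58.3 and 56.1%. Of 22 genes of glycolysis and hypoxia 17 were lower and only P4ha2 (0.91) higher, with Vegfa (-1.76), the glucose transporter Slc2a1 (-0.89) and Ldha (-0.54) among the lower. Of 20 stress and immediate early genes 14 were lower and 3 higher (Hspb1, Jund and Hsp90aa1), and Fosb (-1.12), Egr1 (-0.87) and Hspa1a (-1.12) were among the lower. Their part in the other differences was not tested.

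Markers of other cell types were counted in the same sums. The 14 endothelial genes summed to 209, 214, 233 and 205 CPM, with Icam2 as the most abundant, against a mean of 2583 CPM in the endothelial barcodes, and 10 of 11 tested were lower than in Hapln1 cells. The 14 cardiomyocyte genes, Tnnt2 of the rule included, summed to 1221, 1371, 2104 and 1614 CPM, against 1442, 1795, 2699 and 2050 CPM in Hapln1 cells, and 8 of 12 tested were lower (5 without Wt2 and 2 without the library block). With the limit of the Stmn4 mesenchyme lowered to 1 Stmn4 UMI the list turned, with 5 of 13 tested genes higher and 2 lower and a median of 0.32 in place of -0.35. In the cardiomyocyte barcodes the list summed to a mean of 75104 CPM. The exception was cardiac actin, Actc1, the most abundant of the list, which was higher (1.83 ± 0.13, adjusted p = 6.11e-10) at 566, 581, 627 and 882 against 123, 170, 321 and 164 CPM. All 8 tested epicardial genes were lower and Msln had no UMI. Most of them passed the filter on low counts through the Hapln1 cells, since with at least 10 counts in every sum 2 could be tested. Against Hapln1 cells without epicardial UMIs 3 were tested, 2 of them higher and 1 lower (median 1.06). Those cells were chosen for having no UMI of Upk3b, Upk1b, Krt7 or the Wilms tumour gene. Genes that go along with these had to fall in them, so this turn of the list follows from the choice and is a description. Epithelial genes summed to 254, 303, 165 and 452 CPM, against a mean of 189 CPM in Hapln1 cells, and most of it was from the keratins Krt8 (mean 148 CPM) and Krt18 (mean 145 CPM), which were both higher (1.07 and 0.33). The third tested gene of the list, Sox2, was lower (-1.31) at 0.935 against 2.62 CPM, but with at least 10 counts in every sum it was not tested. Without Wt1, without Wt2 and with DESeq2, 1 gene of the list was higher. The list median of 0.33 moved to 2.99 against Hapln1 cells without epicardial UMIs, a choice that bears on any gene that goes along with Krt7 or the uroplakins. It moved to 1.97 against those that met the Postn and Tgfbi limit. Epcam, absent by the rule, and Cdh1, Cldn6, Foxa2, Nkx2-1 and Pax8 were at 0. Macrophage genes summed to at most 19.6 CPM and none was tested. Erythroid genes summed to 4.43, 5.50, 22.6 and 15.5 CPM, with Hbb-y the one called gene of 2 tested (-2.77). With at least 10 counts in every sum no erythroid gene was tested. Of the genes of paraxial and skeletal muscle mesoderm only Meox1, named above, and Tcf15 (-0.03) were tested. This list summed to a mean of 118 CPM, nearly all from Meox1 (115 CPM), against 20.1 CPM in Hapln1 cells.

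The Stmn4 mesenchyme was not uniform when split by Hapln1 or by Rgs5. Cells with at least 1 Rgs5 UMI had 2669, 2972, 2177 and 4543 CPM of Acta2 and those without 1009, 747, 685.5 and 1155 CPM. Some of its cells had at least 3 Hapln1 UMIs themselves, namely 96, 99, 100 and 45 cells or 43.4, 39.6, 58.1 and 42.1%, with Ho1 the highest. They were the deeper cells, with a median of 18128, 20526, 18319 and 20955 UMIs against 14265, 16962, 15942.5 and 18509. Because the cells were split by their own transcripts, the following values are a description with no test. Acta2 stood at 1210, 878, 958 and 1475 CPM in the Hapln1-rich cells of Wt1, Wt2, Ho1 and Ho2 and at 3329, 3740, 2918 and 5968 CPM in the others. Tagln followed the same order, with 3202, 2412, 2945 and 4113 against 5932, 7745, 5813 and 9012 CPM. In each library the Hapln1-poor cells were the higher.

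Cxcl12, Rgs5, Hand1 and Isl1 also ran with the contractile genes. Cxcl12 was at 47.7, 36.3, 23.1 and 45.7 CPM in the Hapln1-rich cells and at 282, 399, 167 and 294 CPM in the others. Rgs5 was at 85.3, 61.7, 79.9 and 113 against 267, 257, 225 and 230 CPM. Isl1 was at 35.4, 14.9, 18.8 and 31.5 against 60.5, 94.2, 45.4 and 101 CPM. On the other side, Postn, Twist1, Rtn1 and Sox9 were higher in the Hapln1-rich cells of each library, whereas Meox1 was lower in them in Wt2 (89.5 against 96.6 CPM) and Ho1 (108 against 177 CPM). Postn was at 321, 368, 390 and 318 against 160, 139, 247 and 147 CPM, Twist1 at 414, 580.4, 462 and 476 against 218, 216, 204 and 195 CPM, and Rtn1 at 234, 446, 321 and 313 against 75.2, 77.6, 108.5 and 59.1 CPM. Sox9 had the same order, with 164, 184, 227 and 220 against 116, 113, 178 and 103 CPM. Ho1 had the largest part of Hapln1-rich cells, and it was also the library with the lowest Acta2, Tagln, Cxcl12, Hand1 and Isl1 in the summed Stmn4 mesenchyme.

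**Figure D4:**
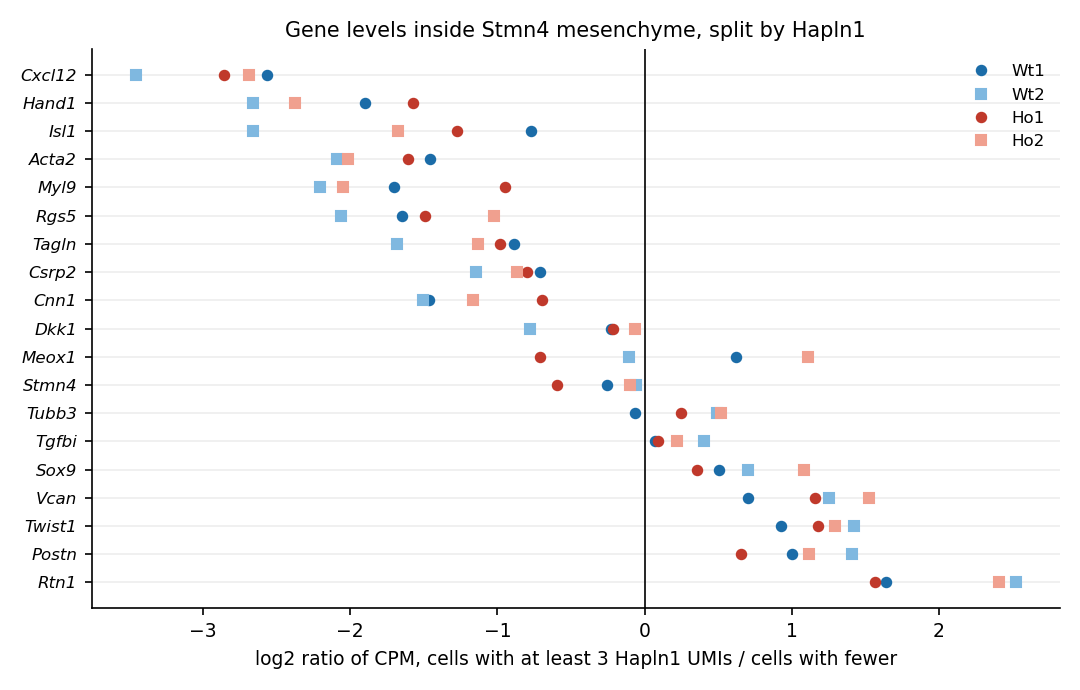
Levels of 19 genes inside the Stmn4 mesenchyme, as log2 of the CPM of cells with at least 3 Hapln1 UMIs over that of cells with fewer. Each point is 1 library. Acta2, Tagln and Cxcl12 lie below 0 and Postn, Twist1 and Rtn1 above 0 in all 4 libraries, while the Meox1 points lie on both sides.

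The comparison of Ho with Wt asked whether the Cyp51 change altered these cells. Summed per library, 10425 genes were tested and none was called by edgeR (0.0%), and DESeq2 also called none, while 521 genes had an unadjusted p below 0.05. For Rgs5 the fold change of Ho over Wt was -0.13 ± 0.13 (adjusted p = 0.973). For Cyp51 it was -0.15 ± 0.15 (adjusted p = 0.973), with Wt2 the highest and the other three libraries within 66.9 to 70.1 CPM. The result rested on the filter and on single libraries. With no filter on low counts 49 genes were called higher and 26 lower, without Ho1 the counts were 42 and 23, and without Ho2 they were 92 and 82. These last fits leave 1 Ho library, whose spread is taken to be that of the Wt pair, and both use the same Wt libraries. Without Ho2 the 1 Ho library left is Ho1, the female one, set against male Wt libraries, so genotype and sex cannot be told apart there.

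As no gene passed the test, the genes with the lowest p are given as values. On the higher side in Ho were transcripts of heart muscle. Myh7, a cardiac myosin heavy chain, was at 7.19 and 15.8 CPM in Wt1 and Wt2 and at 53.4 and 29.5 CPM in Ho1 and Ho2 (1.88 ± 0.34, adjusted p = 0.367). Myl4 was at 56.4 and 59.1 against 145 and 86.0 CPM (1.06 ± 0.20, adjusted p = 0.467) and titin (Ttn) at 16.0 and 18.7 against 46.8 and 28.5 CPM (1.18 ± 0.24, adjusted p = 0.477). Ho1 was the highest library for all 3. All 12 tested cardiomyocyte genes had higher values in Ho (median 0.84 against -0.00 over all genes). In 4 of them the Ho values lay above the Wt values with no overlap, as they did in 16.2% of all 10425 genes tested. In Hapln1 cells Myh7 was at 12.8 and 17.1 CPM in Wt and at 57.6 and 16.7 CPM in Ho, Myl4 at 71.9 and 95.4 against 211 and 122 CPM, and Ttn at 13.3 and 27.6 against 73.7 and 30.8 CPM. Ho1 was again the highest library for each, and the Ho2 value lay above both Wt values for Myl4 and Ttn but not for Myh7. Kept barcodes with Tnnt2 of at least 20 per 10000 numbered 1296, 2084, 2673 and 2050, so Ho1 held the most. The part of free cardiomyocyte RNA in these values was not tested.

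Meox1, a homeobox factor, was at 96.5 and 93.4 CPM in Wt and at 135 and 136 CPM in Ho (0.54 ± 0.10, adjusted p = 0.467). That Ho and Wt did not overlap was required of every gene picked here by its p. The other genes named on this side were mt-Nd1, a mitochondrial subunit of complex I (0.62), Wdr89 (0.67), and Rpl9-ps6 (0.73) and Rps27rt (1.02), which are copies of ribosomal protein genes and may share reads with them. On the lower side were linker histones. Hist1h1e was at 123 and 130 CPM in Wt and at 74.7 and 78.2 CPM in Ho (-0.70 ± 0.11, adjusted p = 0.367), Hist1h1a had a fold change of -0.74 and Hist1h1b of -0.55, and the core histone Hist2h2ac of -0.92. Luzp1 (-0.60), Rsbn1 (-0.71), Zfp326 (-0.43) and Sap30 (-0.44) completed the named genes.

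Over all 10425 genes, 16.2% had their Ho values above the Wt values with no overlap and 17.7% had them below, and the list counts are read against these shares. Of 27 cushion factors 13 lay above, with Sox9 (0.39), Tbx20 (0.30) and Hand2 (0.26) as examples, 1 lay below, and the list median was 0.18. None passed the test, and the adjusted p was 0.953 for each of the 3 named. Of 40 S-phase genes 14 lay below and 1 above (median -0.12), of 29 cilium genes 7 below and 1 above, and of 20 stress genes 7 below and 2 above. Of 9 retinoic acid genes 3 lay below and none above, among them Crabp2, at 102 and 80.7 CPM in Wt and 46.2 and 66.2 CPM in Ho (-0.69 ± 0.18, adjusted p = 0.885). Of 26 Wnt genes 4 lay above and 7 below, of 3 stathmins 2 lay below, and both tested erythroid genes lay above. None of the 9 second heart field genes lay apart in either direction. Of 25 cholesterol genes 4 lay above and 4 below (median -0.02), of 23 smooth muscle genes 2 above and 3 below (median -0.04), of 52 G2 and M-phase genes 1 above and 6 below, of 12 hedgehog genes 1 and 1, and of 30 TGF-beta and BMP genes 4 and 4. Of 11 Notch genes 3 lay above and 1 below (median -0.04). Among them Hes1, a Notch target, was at 90.4 and 81.1 CPM in Wt and 125 and 120 CPM in Ho (0.55 ± 0.11, adjusted p = 0.477).

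**Figure D5:**
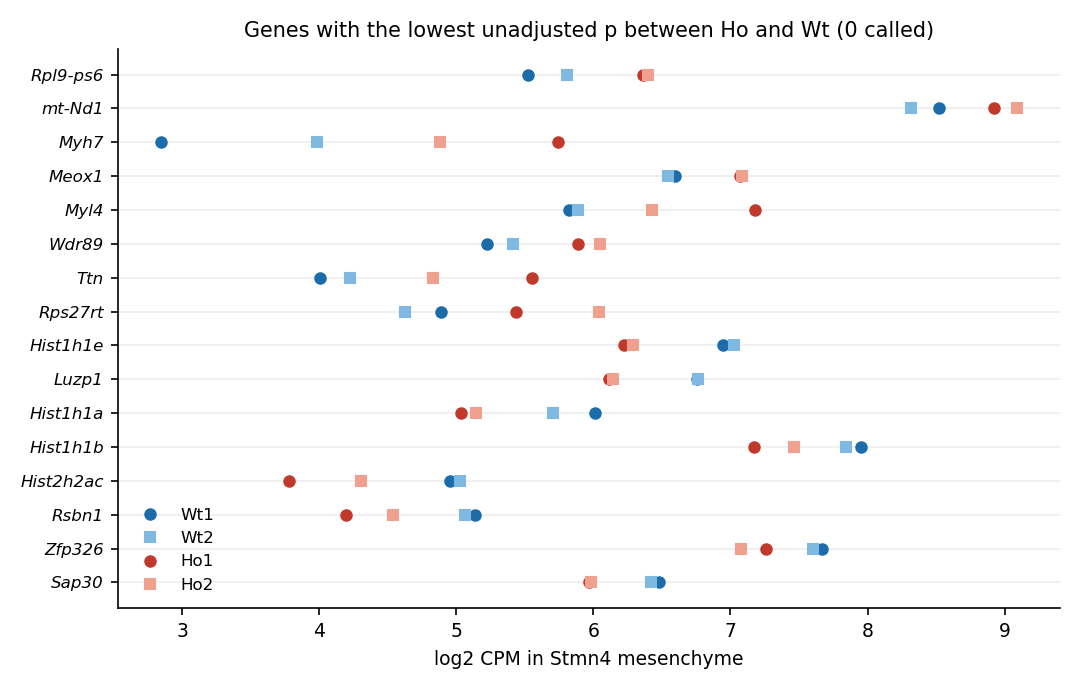
Levels of the 16 named genes in the summed Stmn4 mesenchyme of each library, as log2 CPM. Each point is 1 library. These genes were picked for the lowest unadjusted p, so that the Wt and Ho points lie apart follows from the choice, and none passed the test.

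The share of cells with a UMI of Mki67 or Top2a at 2000 UMIs was 20.1 ± 0.950% in Wt and 18.1 ± 0.884% in Ho (SD, n = 2), a difference of -2.06 percentage points with a two-sided exact permutation p of 0.333, the smallest possible. The sign of this difference changed when at least 3 Stmn4 UMIs were required. Without thinning it was -0.281 percentage points, and the shares of 48.0 and 54.0% in Wt and 50 and 51.4% in Ho overlapped.

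Whether Ho differed from Wt by another amount in Stmn4 mesenchyme than in Hapln1 cells was tested as an interaction. Of 12211 genes 6 were called (0.0491%), 3 in each direction (0.0246% each). The difference was positive for Cdkn1a, Rep15 and Dkk1 and negative for Klf6, Fos and Gadd45g, and their values stand in the closing section. DESeq2 called none of them.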

How the data were processed

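Single-cell suspensions of E10.5 hearts were sequenced as 4 droplet libraries, and the deposited files hold raw counts, whole UMIs per gene and barcode that the authors obtained with Cell Ranger 6.1.1 on mm10 (GRCm38), with Seurat 4.1.0 also named in the submitters' notes. Ambient RNA had not been removed from these counts by any step stated in the sources used here. Barcodes with 500 to 6000 genes, 2000 to 50000 UMIs and at most 20% mitochondrial UMIs were kept. The rule for Stmn4 mesenchyme and the 37 gene lists were chosen with earlier results of these data known.

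UMIs were summed per library and class and tested with edgeR 4.0.16 (R 4.3.3), with TMM normalization, filterByExpr and Benjamini-Hochberg adjustment at 0.05. Ho was compared with Wt without a covariate, classes with library as a block, and the interaction with both classes of all 4 libraries. DESeq2 1.42.0, other normalization and filters, other limits of the rule and leaving out each library were tried as alternatives. Genes named were the 15 with the largest fold change in each direction among those called, with 1 direction in all 4 libraries and at 50 CPM or more in the higher class. For Ho against Wt, where none was called, they were the 8 in each direction with the lowest p at 20 CPM or more whose Ho and Wt libraries did not overlap. The rule genes, Rgs5, Cyp51, Xist and up to 4 genes per list were also named, and further list genes were chosen after their values were seen. Some list genes that enter the counts are not reported here by name. Shares carry exact 95% binomial intervals, and groups of libraries were compared by exact permutation. Doublets were marked with Scrublet (scanpy 1.11.5), which found 222, 205, 373 and 119 barcodes and 8, 4, 3 and 0 cells of the Stmn4 mesenchyme, and they were kept except in an alternative. Thinning drew a fixed number of UMIs per cell without replacement. The fits were also run on simulated sums with known changes, built from the means and fitted dispersions of these data, and the outcome is not reported here.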

Additional observations from a re-analysis of the deposited data

Results flagged for a closer look

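The effect of the Cyp51 genotype differed between Stmn4 mesenchyme and Hapln1 cells for 6 genes by edgeR's interaction test with Benjamini-Hochberg adjustment, and the difference given is the log2 fold change of Ho over Wt in Stmn4 mesenchyme minus that in Hapln1 cells. DESeq2 and a fit without the library block called none of them. Klf6, an immediate early transcription factor, differed by -0.59 (adjusted p = 0.00167). It was at 342, 398, 268 and 335 CPM in Stmn4 mesenchyme of Wt1, Wt2, Ho1 and Ho2 and at 294, 333, 361 and 416 CPM in Hapln1 cells, so the Ho libraries were lower in the first class and higher in the second. Cdkn1a, which encodes the cell cycle inhibitor p21, differed by 1.91 (adjusted p = 0.00367), at 11.3, 12.1, 21.9 and 19.8 CPM against 22.7, 20.6, 8.62 and 12.9 CPM, with groups that did not overlap in either class. Both genes were called in 8 of 10 settings.

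Fos, another immediate early factor, differed by -0.81 (adjusted p = 0.0335), at 74.7, 80.0, 46.8 and 80.2 CPM against 64.3, 86.2, 91.8 and 124 CPM, and the low value of Ho1 in Stmn4 mesenchyme was not matched by Ho2. Gadd45g, a stress-induced growth regulator, differed by -0.76 (adjusted p = 0.0468), at 164, 233, 117 and 149.7 CPM against 188.5, 179.9, 205.5 and 216 CPM. Dkk1, the Wnt antagonist, differed by 0.88 (adjusted p = 0.0468), at 126, 104, 173 and 129 CPM against 20.4, 13.2, 13.8 and 10.2 CPM. Rep15 differed by 1.81 (adjusted p = 0.0468), at 9.13, 5.72, 32.1 and 11.1 CPM against 11.6, 7.88, 9.52 and 7.49 CPM, and without Ho1 it was at 0.99 with an adjusted p of 0.604. It was not called without Wt1 (0.136) or Wt2 (0.0647) either. Fos was not called without Wt1 (adjusted p = 0.193), Gadd45g not without Wt2 (0.61) and Dkk1 not without Wt1 (0.789). Fos belongs to the listed stress and immediate early genes, which were lower as a group in Stmn4 mesenchyme than in Hapln1 cells, and their part in these values was not tested.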

How the results depend on the processing

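Replicate numbers are shared by Wt and Ho, and whether a number pairs the samples is not given in the sources used here. The differences between numbers correlated at r = 0.121 over 4039 genes in 2 pairs, and with the replicate block 0 genes were called between Ho and Wt. Between Ho and Wt, no filter on low counts gave 49 higher and 26 lower calls, and leaving out 1 library gave 0 to 92 higher and 0 to 82 lower (without Ho2 the most), where 1 genotype is left with 1 library that is assumed to vary like the other pair. Between Stmn4 mesenchyme and Hapln1 cells, DESeq2 gave 1308 higher and 1176 lower calls, sums thinned to the smallest sum 1382 and 1373, and Hapln1 cells by Hapln1 and Stmn4 alone 3342 lower. For the interaction, no filter gave 16 and 25 calls, DESeq2 and the fit without the library block 0 and 0, and leaving out 1 library 2 to 37 higher and 6 to 55 lower. The difference in cycling share between Ho and Wt turned to 1.19 percentage points with at least 3 Stmn4 UMIs and to 0.699 with at least 2 per 10000. Smim1 turned to 0.72 against Hapln1 cells without epicardial UMIs. Between Ho and Wt, Rgs5 lay between -0.31 and 0.0522 with 1 library left out (positive without Ho1) and turned to 0.0787 with at least 2 Stmn4 UMIs per 10000, and Cyp51 lay between -0.32 and 0.0705 (positive without Wt2), with none called. The causes of these changes were not tested, except that leaving out a library or thinning leaves fewer UMIs. Of the alternatives to the counts and differences that answer a comparison, 93 kept the direction with a count within 1.5 times or the same side of the threshold, 26 moved and 2 reversed. The smallest sum of Stmn4 mesenchyme was 2070815 UMIs in Ho2, and the part of depth in the number of calls was not tested beyond the thinned sums.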
